A study of Mus musculus with 30 samples.

Results

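The 10 genes described here encode proteins of the cone photoreceptor: the nuclear receptors Thrb and Rxrg, the opsins Opn1sw and Opn1mw, the phosphodiesterase subunits Pde6c and Pde6h, the transducin subunits Gnat2, Gnb3 and Gngt2, and the arrestin Arr3. They were taken by symbol from 38720 genes listed in both deposited RNA tables, and all 10 were found. Poly(A) RNA came from retinas of newborn mice (postnatal day 0), dissociated with papain and separated with anti-CD90 magnetic beads. CD90 is the product of Thy1, a surface protein of retinal ganglion cells (RGCs), so the bead-bound cells are the RGC fraction and the other retinal cells, which the labels describe as pooled, are the non-RGC fraction.

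The tables cover 9 libraries in 3 groups of 3: WT RGC (C57BL/6), mutant RGC and mutant non-RGC. The labels hold a pair of mutant genotypes, Math5Cre; Ezh2f/f and Math5Cre; Ezh2f/fG9af/+. Both carry floxed Ezh2, which encodes the H3K27 methyltransferase of Polycomb repressive complex 2, and one of them also carries 1 floxed allele of Ehmt2, the gene of the H3K9 methyltransferase G9a. The tables say only "mut", so which genotype the mutant libraries have cannot be told. Math5, also called Atoh7, is active in retinal precursors that yield ganglion cells and also part of the cones, amacrine cells and horizontal cells, so the Cre driver is not restricted to ganglion cells. No WT non-RGC library was analysed here. Nothing states whether libraries came from separate animals, so p-values measure only the spread between these libraries.

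In the mouse retina cones are born before birth, together with ganglion, horizontal and amacrine cells, while rods are born later. The thyroid hormone receptor Thrb, with its partner Rxrg, sets which opsin a cone makes: short-wavelength opsin comes first, and medium-wavelength opsin follows after birth under thyroid hormone. Light captured by an opsin activates cone transducin, a trimer of Gnat2, Gnb3 and Gngt2. Transducin relieves the inhibition of cone phosphodiesterase (Pde6c) by its small subunit Pde6h, cyclic GMP falls and the cyclic nucleotide gated channel closes. Arr3 then binds the phosphorylated opsin and ends the signal.

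Each library held between 10551825 and 12259494 reads assigned to genes. Values are normalised counts, that is reads divided by a size factor computed over the 9 libraries, and the library numbers 1 to 3 in a group follow the size factors from large to small, with no tie to a single sample or to the same number in another group. Gene-level counts of Ezh2 were 1300 ± 239 in WT RGC, 1879 ± 76.3 in mutant RGC and 2241 ± 86.1 in mutant non-RGC libraries (mean ± SD, n = 3), and those of Ehmt2 were 3734 ± 127, 2708 ± 309 and 2993 ± 251. These totals include reads outside a deleted exon and cells without Cre, so they do not check the deletion. Of 14 ganglion cell markers, 11 fell and 0 rose in mutant against WT RGC libraries, where 16.4% of all genes tested fell and 11.7% rose. Each of these calls held in at most 2 of 6 fits that left out 1 library. Their summed level was 34548 to 40017 in WT RGC, 16859.9 to 26866 in mutant RGC and 4976 to 10460.4 in mutant non-RGC libraries, so both RGC fractions held more of them than the non-RGC fraction.

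Promoter sequences were available for 7 of the 10 genes, with 9 windows in all, in RefSeq's annotation of GRCm38.p6. They are shown because known regulators of cone genes have short recognition sequences: OTX2 and CRX bind a homeodomain core, TAATC, and thyroid hormone and retinoid X receptors bind the half-site AGGTCA. Each line is the 250 bases before an annotated start, 5′ to 3′ on the gene's strand, and capitals mark TAATC and AGGTCA on either strand (GATTA and TGACCT on the printed one). The first start of Thrb lies near the upstream end of the gene and the second far downstream, and counts summed over a gene cannot tell which start was used.
Thrb start 1 (chr14:17660710-17660959, plus strand): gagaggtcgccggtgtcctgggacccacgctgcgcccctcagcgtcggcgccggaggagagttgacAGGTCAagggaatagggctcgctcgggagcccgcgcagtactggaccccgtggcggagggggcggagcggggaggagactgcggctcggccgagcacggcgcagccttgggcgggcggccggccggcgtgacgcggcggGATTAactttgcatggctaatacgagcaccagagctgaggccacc
Thrb start 2 (chr14:17981394-17981643, plus strand): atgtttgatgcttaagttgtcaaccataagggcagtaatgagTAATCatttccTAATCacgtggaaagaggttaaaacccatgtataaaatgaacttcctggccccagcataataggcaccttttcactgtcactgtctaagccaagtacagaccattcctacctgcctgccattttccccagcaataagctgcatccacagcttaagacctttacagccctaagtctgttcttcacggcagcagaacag
Rxrg start 1 (chr1:167598112-167598361, plus strand): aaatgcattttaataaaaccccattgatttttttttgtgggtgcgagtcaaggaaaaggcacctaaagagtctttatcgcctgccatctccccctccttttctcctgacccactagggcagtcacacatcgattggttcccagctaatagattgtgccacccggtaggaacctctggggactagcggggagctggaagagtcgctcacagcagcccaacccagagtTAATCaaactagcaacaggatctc
Rxrg start 2 (chr1:167618015-167618264, plus strand): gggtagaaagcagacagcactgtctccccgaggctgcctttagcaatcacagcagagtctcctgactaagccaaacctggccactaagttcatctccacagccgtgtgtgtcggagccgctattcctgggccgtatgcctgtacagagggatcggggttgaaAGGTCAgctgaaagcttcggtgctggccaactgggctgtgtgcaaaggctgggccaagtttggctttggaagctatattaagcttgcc
Opn1sw (chr6:29380514-29380763, minus strand): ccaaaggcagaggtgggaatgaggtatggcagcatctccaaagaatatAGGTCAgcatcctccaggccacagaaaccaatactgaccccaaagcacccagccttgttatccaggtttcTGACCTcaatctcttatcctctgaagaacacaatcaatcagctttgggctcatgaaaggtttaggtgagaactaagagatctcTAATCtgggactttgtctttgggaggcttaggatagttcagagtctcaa
Gnat2 (chr3:108092816-108093065, plus strand): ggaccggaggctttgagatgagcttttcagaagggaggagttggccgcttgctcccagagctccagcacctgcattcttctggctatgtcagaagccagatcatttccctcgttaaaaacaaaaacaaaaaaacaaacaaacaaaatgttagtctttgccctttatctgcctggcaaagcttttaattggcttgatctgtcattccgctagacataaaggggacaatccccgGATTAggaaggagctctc
Pde6h (chr6:136954273-136954522, plus strand): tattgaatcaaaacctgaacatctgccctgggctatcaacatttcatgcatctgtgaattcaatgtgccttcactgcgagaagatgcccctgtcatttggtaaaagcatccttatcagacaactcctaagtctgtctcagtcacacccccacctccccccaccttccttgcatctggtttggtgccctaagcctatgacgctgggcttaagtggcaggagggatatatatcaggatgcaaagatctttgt
TAATC occurred in 6 of the 9 windows, against 19.8% of the 32851 mouse promoter windows of the same length. The longer form TAATCC, which contains TAATC, occurred in 2, at the first Thrb start and at Gnat2, against 6.25% of all windows. AGGTCA occurred in 3, at the first Thrb start, the second Rxrg start and Opn1sw, against 14% of all windows. A match is a description of these letters and not of a bound site. The windows shown are of those of the 7 genes that changed in either comparison, Pde6h being one with no match of either motif.

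Cone genes were mostly higher in the mutant RGC fraction than in the WT RGC fraction. Thrb, Opn1sw, Gnat2, Pde6c and Pde6h rose, by between 2.13-fold and 2.98-fold on the fitted scale, and none of the 10 genes fell by the test. Of the other tested members, Gnb3, Gngt2 and Arr3 had positive estimates and Rxrg a negative one. Opn1mw was not tested because it was almost absent. In this bulk RNA, more cells of a type and more RNA per cell cannot be told apart.

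Gene positions are those of RefSeq genes on GRCm38.p6. All 9 tested members reached a mean of 10 in each of the 3 groups, so none passed the filter through a single group. Against WT RGC libraries, 5 of 9 were called higher and 0 lower by limma (Benjamini-Hochberg adjusted p under 0.05 over all genes tested), where 28.2% of the 15273 genes tested were called, 11.7% higher and 16.4% lower. The 2 groups did not overlap for 6 of 9 members, 5 higher and 1 lower, against 51.9% of all genes, 23.4% higher and 28.5% lower. The median log2 difference was 1.09 over the 9 members and -0.03 over all genes tested. The authors' size factors changed the split of all calls from 1794 higher and 2507 lower to 2092 higher and 1879 lower, while the same 5 members were called.

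**Figure D1:**
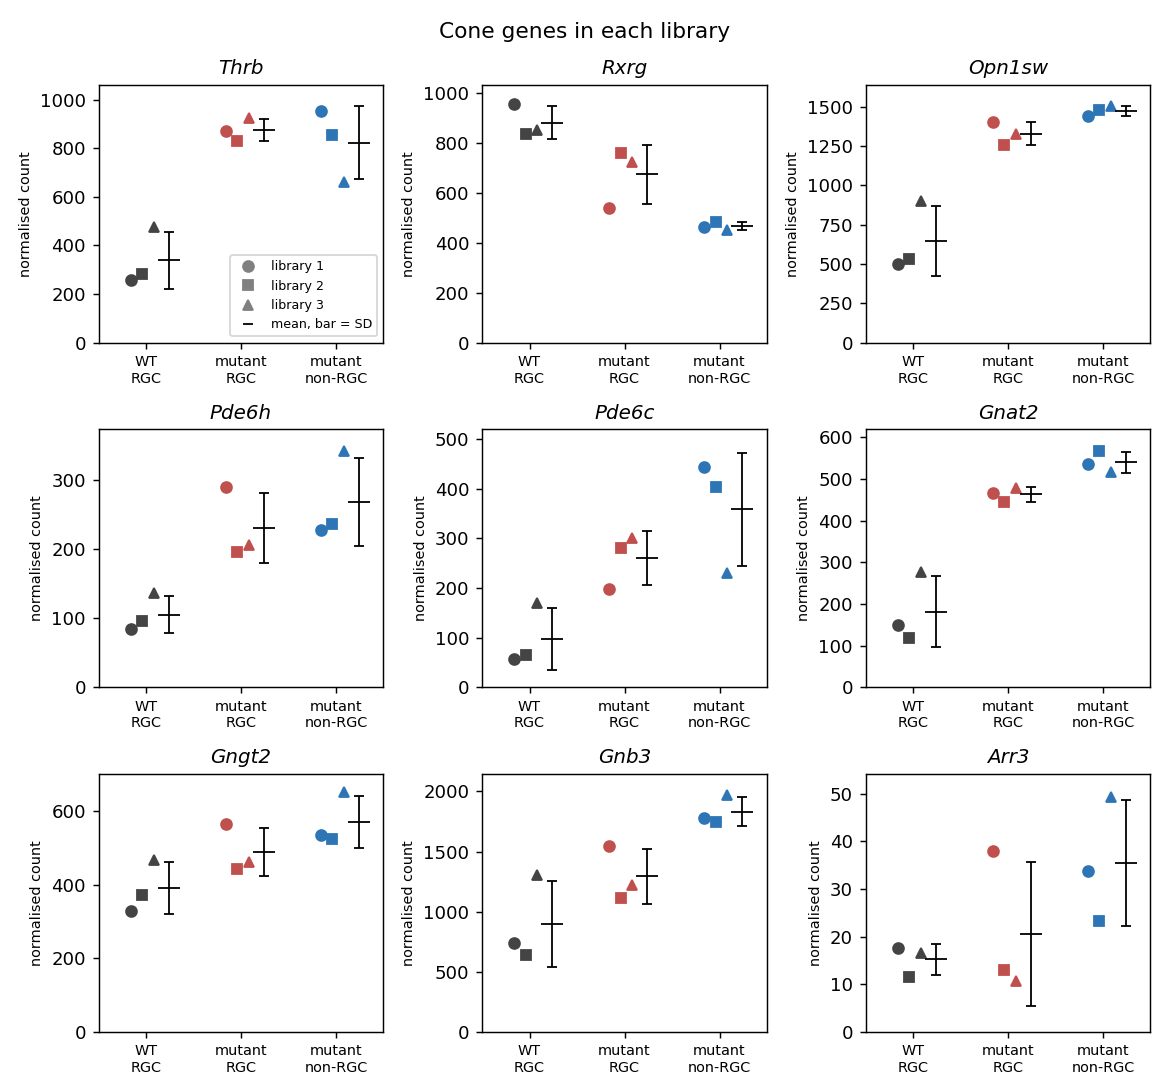
Normalised counts (y axes, linear and starting at 0) of the 9 tested cone genes in the 3 libraries of each group (x axes), with the mean and SD as horizontal and vertical lines. The WT RGC libraries lie below both mutant groups for Thrb, Opn1sw, Pde6h, Pde6c and Gnat2, and above them for Rxrg.

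Thrb (chr14:17659225-18040097), the cone thyroid hormone receptor, stood at 258, 282 and 474 in the WT RGC libraries and at 872, 832 and 924 in the mutant RGC libraries. Every mutant RGC library was above every WT RGC library, the closest pair being the third WT and the second mutant one. The log2 difference was 1.42 (SE 0.22), a 2.68-fold rise with a limma adjusted p of 0.0238. Rxrg (chr1:167598362-167639623), the retinoid X receptor that pairs with it in cones and is also made by developing ganglion cells, went the other way with 959, 838 and 853 in WT and 540.4, 762 and 725 in mutant RGC libraries. All mutant RGC libraries were below all WT ones, with a log2 difference of -0.40 (SE 0.14) that missed the threshold (limma adjusted p = 0.0738). With all 9 libraries in 1 fit its limma adjusted p was 0.0381. The fall of ganglion cell markers in the same libraries moved with the lower Rxrg values, and their part in it was not tested.

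Opn1sw (chr6:29376671-29380513), the short-wavelength opsin, had counts of 503, 529 and 902 in WT RGC and 1400.0, 1256 and 1328 in mutant RGC libraries. The groups lay well apart, although the third WT library was far above the others of its group. Its log2 difference was 1.09 (SE 0.22, limma adjusted p = 0.0257). Opn1mw (chrX:74127466-74150756), the medium-wavelength opsin, had 1 read in the first WT RGC library and 0 in the other 8 libraries. A count of 0 allows up to 3 reads, which is between 0.245 and 0.284 CPM (reads scaled by the library's assigned total) and covers counting error only. Opn1mw shares 1496 bases of its span with the pseudogene Gm6758, which had 0 to 7.20 normalised counts. Whether reads of that stretch were counted for one of them or left out cannot be told from the sources used here. At this age one opsin was thus measured in every library and the other was at the floor.

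Gnat2 (chr3:108086788-108101432), the alpha subunit of cone transducin, had 148, 118 and 277 in WT RGC and 466, 443 and 478 in mutant RGC libraries. The mutant libraries were close together and all above the WT ones (log2 difference 1.44, SE 0.30, limma adjusted p = 0.026). The partner subunits differed less. Gnb3 (chr6:124834240-124840275), the beta subunit, which bipolar cells also make, had 740.0, 641 and 1306 in WT RGC and 1549, 1115 and 1218 in mutant RGC libraries, so the groups overlapped. Gngt2 (chr11:95841772-95845734), the gamma subunit, had 329, 374 and 468 against 564, 443 and 461 and overlapped as well. Their log2 differences were 0.59 (SE 0.27, limma adjusted p = 0.141) and 0.33 (SE 0.16, limma adjusted p = 0.149). Gngt2 shares 705 bases of its span with Abi3, and the sources used here do not state whether counting used strand, so reads of that stretch cannot be assigned to one of them with certainty. Abi3 itself had between 12.6 and 49.97 normalised counts.

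Pde6c (chr19:38132781-38183955), the catalytic subunit, had 57.0, 64.2 and 169 in WT RGC and 198, 281 and 301 in mutant RGC libraries. Pde6h (chr6:136952218-136963485), the inhibitory subunit, had 83.5, 95.8 and 136 in WT RGC and 289, 196 and 205 in mutant RGC libraries. Neither gene's groups overlapped, and the libraries at the top and bottom of the mutant group were not the same for both. The log2 differences were 1.57 for Pde6c (SE 0.42, limma adjusted p = 0.0391) and 1.13 for Pde6h (SE 0.24, limma adjusted p = 0.0263). Arr3 (chrX:100605480-100618493), cone arrestin, was low throughout, with 17.7, 11.6 and 16.4 in WT RGC and 37.9, 13.1 and 10.7 in mutant RGC libraries. Its estimate rested on the first mutant library: the log2 difference was 0.22 (SE 0.50, limma adjusted p = 0.77) with it and -0.32 (limma adjusted p = 0.492) without it.

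**Figure D2:**
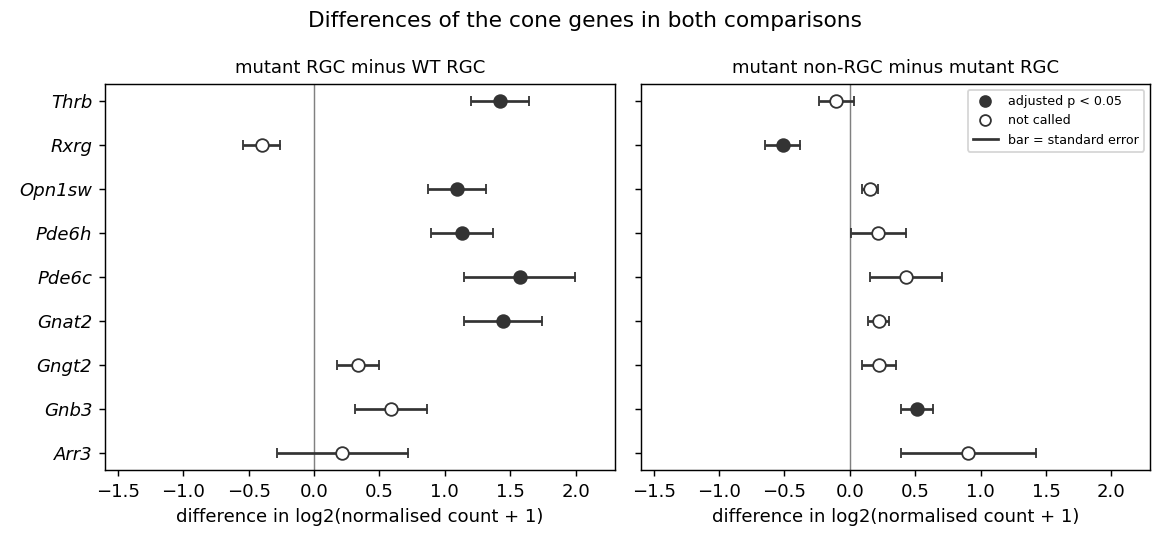
Differences in log2(normalised count + 1) on the x axes, with standard errors as bars, for the 9 tested cone genes in both comparisons; filled points had a limma adjusted p under 0.05. Thrb, Opn1sw, Pde6h, Pde6c and Gnat2 are filled on the left, and Rxrg (lower) and Gnb3 (higher) on the right.

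In the authors' deposited table the adjusted p of the same 5 genes ran from 3.18e-12 for Thrb to 0.00595 for Pde6c. In the authors' deposited table Rxrg (0.175), Gngt2 (0.199), Gnb3 (0.281) and Arr3 (1) did not pass the same threshold. With 3 libraries a group the limma calls depended on single libraries. No member was called without WT RGC library 1 or 2, or without mutant RGC library 2 or 3, where 3 to 8 genes of all were called. Without the first mutant RGC library 4 were called, Pde6c being lost. Without the third WT RGC library 7 were called, Gnb3 (log2 difference 0.89, limma adjusted p = 0.0104) and Gngt2 (0.47, limma adjusted p = 0.0366) being added, and the number of all genes called was 6783. The 5 genes kept their direction in each of these fits.

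The third WT RGC library was the highest of its group for 7 of the 9 tested members, all except Rxrg and Arr3. Its value over the mean of the other WT libraries was 1.76 for Thrb, 1.75 for Opn1sw, 2.08 for Gnat2, 2.78 for Pde6c, 1.89 for Gnb3 and 0.949 for Rxrg. The same library had the highest WT sums of proliferation genes (21361, against 12348 and 13769) and of progenitor markers (24822, against 17525 and 17762), and the lowest of ganglion cell markers (34548). It also had the highest WT sums of rod genes (8480) and of amacrine (6633), horizontal (5455), pigment epithelium (1134) and microglia (4394) markers. Its sums of bipolar markers (2472) and of the other cone phototransduction genes (3093) were the lowest. The largest part of the bipolar sum was Isl1 (mean 1712 in WT RGC), which is also among the ganglion cell markers, so these 2 lists are not independent. The largest parts of the phototransduction sum were Rgs9, Gnb5 and Slc24a2 (means 845, 815 and 514 in WT RGC). So in this WT library the cone members were high together with genes of dividing cells and of several other cell types, while ganglion cell markers were low. Between the groups, proliferation genes ran the same way as the cone genes. Of 14, 13 were called higher in mutant RGC libraries, beside 11.7% of all genes tested, with a median log2 difference of 0.89. The part of these other cells in the cone gene differences was not tested. Against the third WT library alone, the mutant RGC mean was 1.85-fold for Thrb, 1.47-fold for Opn1sw, 1.67-fold for Gnat2 and 0.991-fold for Gnb3, ratios of 1 library with no test.

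**Figure D3:**
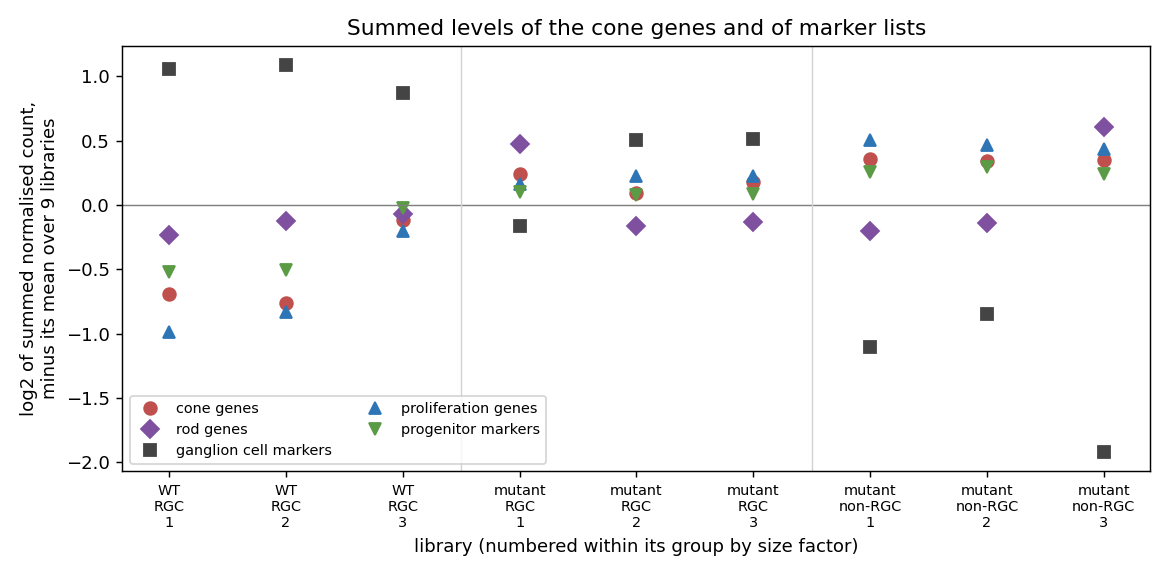
Log2 of the summed normalised counts of the cone genes and of 4 marker lists in each library (x axis), minus each list's mean over the 9 libraries (y axis). Cone genes lie near the proliferation genes and progenitor markers in most libraries, while rod genes are highest in the first mutant RGC and the third mutant non-RGC library.

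The fractions of the mutant retina were compared next, mutant non-RGC against mutant RGC libraries, a comparison that shares the 3 mutant RGC libraries with the one above. Gnb3 was higher and Rxrg lower in the non-RGC fraction, and the other 7 tested members were not called. By limma 1 of 9 members was called higher and 1 lower, against 17.8% of 15112 genes tested, 5.36% higher and 12.4% lower. The groups did not overlap for 4 of 9, 3 higher and 1 lower, against 38.3% of all genes, 17.2% higher and 21.1% lower. The median log2 difference was 0.22 over the members and 0.01 over all genes tested.

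Rxrg had 540.4, 762 and 725 in mutant RGC and 466, 486 and 451 in mutant non-RGC libraries, with no overlap (log2 difference -0.51, SE 0.13, limma adjusted p = 0.0396). Over the 3 groups its means were 883 ± 66.3 in WT RGC, 676 ± 119 in mutant RGC and 468 ± 17.4 in mutant non-RGC libraries (SD, n = 3). Ganglion cell markers had the same order, 8 of 14 being called lower in the non-RGC fraction, beside 12.4% of all genes tested. Their median log2 difference was -1.81, and their part in the Rxrg difference was not tested. Gnb3 had 1549, 1115 and 1218 in mutant RGC and 1779, 1746 and 1972 in mutant non-RGC libraries, also without overlap (log2 difference 0.51, SE 0.12, limma adjusted p = 0.0304). In the authors' deposited table the adjusted p of this comparison was 0.00793 for Gnb3 and 0.0713 for Rxrg. Both calls rested on single libraries, no member being called without mutant RGC library 2 or 3, or without any 1 of the non-RGC libraries. Without the first mutant RGC library 3 were called.

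Thrb had 953, 855 and 660.3 in the non-RGC libraries, overlapping the mutant RGC libraries (log2 difference -0.10, SE 0.13, limma adjusted p = 0.642). Opn1sw had 1442, 1477 and 1505 and Gnat2 had 537, 566 and 515, in both cases just above all mutant RGC libraries. Their log2 differences of 0.15 (SE 0.06, limma adjusted p = 0.142) and 0.22 (SE 0.08, limma adjusted p = 0.0976) were not called. Pde6c had 443, 403 and 229, Pde6h 227, 236 and 341, Gngt2 537, 525 and 652 and Arr3 33.7, 23.2 and 49.4, each overlapping the mutant RGC libraries, with limma adjusted p from 0.28 to 0.532. The missed threshold does not show that the fractions were alike. Summed over the members, normalised counts were 2953 to 4601 in WT RGC, 5341 to 5916 in mutant RGC and 6317 to 6417 in mutant non-RGC libraries. The sums of the bead-bound mutant fraction thus lay above all WT RGC sums and below all those of the unbound fraction. These sums include Rxrg, which developing ganglion cells also make and which was higher in the bead-bound fraction.

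Within a library, the balance between members also differed. The pairs described here were chosen after their values were seen and have no test, and a ratio of reads of 2 genes is compared only between libraries, not read as a ratio of molecules. Thrb reads over Rxrg reads were 0.269, 0.337 and 0.557 in WT RGC, 1.61, 1.09 and 1.27 in mutant RGC and 2.05, 1.76 and 1.46 in mutant non-RGC libraries. The WT libraries were all below the mutant ones, and both receptors contribute to that since one was higher and the other lower. Pde6c reads over Pde6h reads split the libraries differently: 0.682, 0.67 and 1.24 in WT RGC, 0.686, 1.43 and 1.46 in mutant RGC and 1.95, 1.70 and 0.672 in mutant non-RGC libraries. The low mutant values fell in the first mutant RGC and the third non-RGC library, which also had the highest summed rod genes of all 9 libraries (12384 and 13579, against 7585 to 8480 in the others) and the highest Pde6h, Gngt2, Gnb3 and Arr3 of their groups. A technical or cellular source of this split was not tested.

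**Figure D4:**
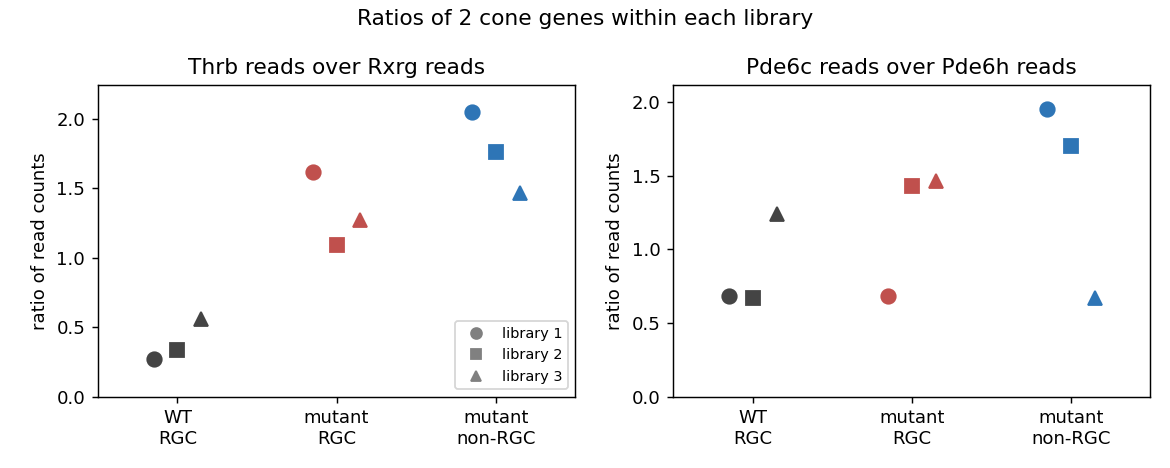
Reads of Thrb over reads of Rxrg (left) and of Pde6c over Pde6h (right), on linear y axes, in the 3 libraries of each group. The Thrb ratio is between 0.269 and 0.557 in WT RGC and above 1 in all mutant libraries, while the Pde6c ratio is near 0.7 in 4 libraries spread over the 3 groups.

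Among 12 other genes of cone phototransduction, 11 were tested between genotypes, 2 rose and 1 fell, where 28.2% of all genes tested were called, 11.7% higher and 16.4% lower. Their median log2 difference was 0.50, and that of all genes -0.03. The risers were the subunits of the cone cyclic nucleotide gated channel, the target of the falling cyclic GMP. Cnga3 went from 126 ± 51.5 in WT to 299 ± 35.2 in mutant RGC libraries (SD, n = 3; log2 difference 1.31, SE 0.28, limma adjusted p = 0.0261), and Cngb3 from 254 ± 19.9 to 492 ± 123 (0.92, SE 0.18, limma adjusted p = 0.0257). Gnb5, the beta subunit that stabilises RGS9 and is also made by many neurons, fell by a log2 difference of 0.29 (limma adjusted p = 0.0361), and Rcvrn, recoverin of rods and cones, had a difference of 1.25 that was not called (limma adjusted p = 0.0518). Between the fractions 0 rose and 2 fell of 11, where 5.36% of all genes tested were called higher and 12.4% lower. These were Slc24a2, the cone sodium, calcium and potassium exchanger that other neurons also make (log2 difference -0.84, SE 0.15, limma adjusted p = 0.0131), and Rgs9, which speeds the shut-off of transducin (-0.26, limma adjusted p = 0.0396). The Rgs9 call was kept in 1 of 6 fits that left out 1 library and in 5 of 10 other settings, and the Slc24a2 call in 3 of 6 and 9 of 10.

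Of 19 regulators of photoreceptor fate, all tested, 3 rose and 1 fell between genotypes, again beside 28.2% of all genes called, 11.7% higher. Their median log2 difference was 0.23. Sall3, a zinc finger protein needed for short-wavelength cone genes and also made by horizontal cells, went from 177 ± 50.6 to 436 ± 17.3 (log2 difference 1.33, SE 0.20, limma adjusted p = 0.0238). Otx2, the homeodomain factor that starts photoreceptor fate, went from 1683 ± 343 to 2751 ± 539 (0.71, SE 0.18, limma adjusted p = 0.0353). Nr2f2, an orphan nuclear receptor, also rose (0.31, limma adjusted p = 0.0364) and Rora, a nuclear receptor of cones and of other retinal neurons, fell (-0.54, limma adjusted p = 0.0464). Crx, named here after its values were seen, had means of 1816 and 2436 and was not called (log2 difference 0.39, limma adjusted p = 0.204). Between the fractions Rora (log2 difference -0.64, SE 0.06, limma adjusted p = 0.00466) and Ikzf1, which blood cells and microglia also make (-3.88, limma adjusted p = 0.0203), were lower and 0 were higher. The 9 microglia markers were all called lower there, beside 12.4% of all genes tested. Their sum was 1923 to 7079 in mutant RGC and 43.3 to 63.0 in mutant non-RGC libraries.

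Genes of thyroid hormone signalling other than Thrb moved both ways. Of 17 listed, 16 were tested between genotypes, 5 rose and 1 fell, beside the same 11.7% and 16.4% of all genes, with a median log2 difference of 0.06. Rxra, another retinoid X receptor, rose from 858 ± 166 to 1412 ± 185 (log2 difference 0.73, SE 0.16, limma adjusted p = 0.0269). Crym, which binds thyroid hormone in the cell, rose by a log2 difference of 0.57 (limma adjusted p = 0.0369). Risers also included Dio3, the deiodinase that inactivates the hormone (1.25, limma adjusted p = 0.0485), and Klf9, a gene induced by the hormone (0.87, limma adjusted p = 0.0434). Klf9 lies outside the naming rule. Thra, the receptor most neurons use, fell from 3775 ± 54.8 to 3027 ± 273 (-0.32, limma adjusted p = 0.0325), opposite to Thrb. Between the fractions only Slc16a10, a transporter, was called among 15 tested, beside 17.8% of all genes. It was lower, with a log2 difference of -1.35 (limma adjusted p = 0.047). The call was kept in 0 of 6 fits that left out 1 library and in 6 of 9 other settings.

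Of 13 rod genes, all tested, 1 rose (Nr2e3, log2 difference 0.97, limma adjusted p = 0.0416) and 1 fell (Gnb1, -0.21, limma adjusted p = 0.036). Of all genes tested 11.7% were called higher and 16.4% lower. The median log2 difference of the rod genes was 0.47. None was called between the fractions, beside 17.8% of all genes, and 0 of 13 had an unadjusted limma p under 0.05 there. Nr2e3 is the nuclear receptor that represses cone genes in rods, while Gnb1 is made in nearly all cells. The rod sum was 7585 to 8480 in WT RGC and 7965 to 12384 in mutant RGC libraries and so overlapped, where that of the 10 members did not. Gnb1 was the largest part of it, with means of 4762 in WT RGC and 4103 in mutant RGC libraries. The rod sum therefore does not show whether the other rod genes overlapped. Taken singly, 3 of the 13 were higher without overlap and 1 lower, against 23.4% and 28.5% of all genes tested. The sum of the 12 other cone phototransduction genes overlapped too, with 3093 to 3680 in WT RGC and 3174 to 4861 in mutant RGC libraries. Its largest parts in WT RGC libraries were Rgs9, Gnb5 and Slc24a2 (means 845, 815 and 514). Their means were lower in mutant RGC libraries (713, 667 and 256). Taken singly, 5 of the 11 tested, Cnga3 and Cngb3 among them, were higher without overlap and 2 lower, against the same shares of all genes. The difference between the rod and cone lists was not tested. Each genotype call named for the related cone, fate, thyroid and rod genes held in 1 or 2 of the 6 fits that left out 1 library. Under the 10 other settings the call of Gnb5 held in 6, those of Thra, Rora and Gnb1 in 7 each, and those of Nr2f2, Dio3 and Klf9 in 9 each.

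The 5 genes nearest in pattern to the cone genes were sought by Pearson's r over the 9 libraries with the mean standardised profile of the 9 tested members, among 11927 genes with a mean of at least 50. They were Vamp3, a vesicle SNARE (0.999), Prr11 (0.998), Cp, the copper-binding ceruloplasmin (0.997), Rmi2, a subunit of a DNA repair complex (0.9965), and Cdkn3, a cell cycle phosphatase (0.996). Their means were lowest in WT RGC and highest in mutant non-RGC libraries; for Cp these were 1055 ± 394, 2091 ± 173 and 2486 ± 137 (SD, n = 3). The likeness describes 9 libraries in 3 groups, which share their group differences.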

How the data were processed

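Mouse RNA libraries of postnatal day 0 retina were analysed, and the chromatin immunoprecipitation samples of the series (12) were not used here. Per the submitters' processing notes, the tools were STAR 2.3, featureCounts, DESeq and FastQC, and the build mm10. Whether counting used strand is not stated in the sources used here. Per the file headers, the 2 deposited tables give the authors' mean normalised counts per condition, the fold change as a ratio and as log2, and the p-value before and after adjustment. The file names, as deposited by the authors, mark duplicates as removed, which limits counts of short abundant transcripts.

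The tables list no values per library. A mean of 3 libraries is a sum of 3 whole counts, each over 3 times a size factor, and a search for whole numbers (distance under 1e-09, next solution over 10 times further) recovered the counts of 99.975% to 100.000% of genes above 0. Mutant RGC counts from both tables were identical for 23953 of 23953 genes. Mutant RGC is the condition common to both tables, with 0 mismatches in which genes are at 0, against 3098 for the next pairing. Genes with more than 1 solution, 6 in the genotype and 1 in the fraction comparison and none a cone gene, were left out.

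Counts were divided by median-of-ratios factors over the 9 libraries. For each comparison, log2(value + 1) of its 6 libraries entered limma 3.58.1 (R 4.3.3, with a trended prior variance), for genes with a mean of at least 10, with Benjamini-Hochberg adjustment over all genes tested, and genes were called at an adjusted p under 0.05. Fold changes are on that scale and understate changes of low genes. The recovery and the limma fit were also run on simulated counts. In those for limma no library stood apart from its group, so that run does not bear on the dependence of calls on single libraries. The members and lists were chosen with earlier results of these data known. Named genes are the 10 members, up to 4 genes of each related list and up to 2 of each marker list with the smallest p in a fit, and the 5 nearest in pattern. A gene that this rule names is not reported here. Other scalings, pseudocounts, filters, voom weights, a fit of 9 libraries and leaving out each library were the alternatives.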

Additional observations from a re-analysis of the deposited data

How the results depend on the processing

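No paired analysis was possible because the tables carry no replicate numbers. Under 10 other settings (scaling, pseudocount, filter on low values, voom weights, a fit of all 9 libraries) the 5 genotype calls on cone genes were kept in each. Between genotypes, leaving out 1 library gave 0 to 7 members called and 3 to 6783 genes called of all. Between the fractions it gave 0 to 3 members and 519 to 3346 genes, and the count of members was 1 with trimmed-mean-of-M-values factors, voom weights or the fit of 9 libraries. It was 3 with total assigned reads. Rxrg lost its call with total reads, trimmed-mean factors and voom weights (limma adjusted p 0.0556, 0.0565 and 0.0521) and Gnb3 in the fit of 9 libraries (0.186), while Opn1sw (0.045) and Gnat2 (0.0424) were called with total reads only. Fewer libraries leave fewer degrees of freedom, which is part of the construction of these fits. Between genotypes each such fit lost 1 library alike, and the count still ran from 3 to 6783 genes by which library was left out. With 1 library left out, the log2 difference of Arr3 between genotypes ran from -0.3186 (without mutant RGC library 1) to 0.5483. That of Thrb between the fractions ran from -0.2191 to 0.0455 (without non-RGC library 3). None of these estimates was called. Depth limits Opn1mw and Arr3, which had few reads. No scaling moved the median of all genes by more than 0.1 on the log2 scale.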

Other observations

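Markers of amacrine cells were mostly higher in mutant than in WT RGC libraries, and part of the horizontal cell and progenitor markers were. Of all genes tested 11.7% were called higher and 16.4% lower. Of 8 amacrine cell markers, 6 rose and 0 fell, with a median log2 difference of 0.61. Gad2, an enzyme of GABA synthesis, rose by a log2 difference of 0.82 (limma adjusted p = 0.0242), and Gad1 by 0.56 (limma adjusted p = 0.0221). Of 6 horizontal cell markers, 2 rose and 0 fell by the test. Calb1 was lower in all mutant RGC libraries but not called (log2 difference -0.78, limma adjusted p = 0.075). Lhx1, the homeodomain factor of horizontal cells, rose by 1.37 (limma adjusted p = 0.0221), and Prox1 by 0.71 (limma adjusted p = 0.029). Of 12 progenitor markers, 3 rose and 0 fell, with Olig2 at 1.65 (limma adjusted p = 0.0248) and Fgf15 at 1.13 (limma adjusted p = 0.0371). Each call named for these 3 lists held in only 1 or 2 of the 6 fits that left out 1 library. Of 6 tested bipolar cell markers and 9 microglia markers, 0 were called in either direction. Microglia marker sums were uneven, with 7079, 2161 and 1923 in mutant RGC and 3026 to 4394 in WT RGC libraries. The first mutant RGC library, highest in these, had the lowest ganglion cell marker sum of its group (16859.9, against 26765 and 26866).

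Of 7 tested pigment epithelium markers, 2 rose and 1 fell between genotypes, beside the same 11.7% and 16.4% of all genes. Pmel, a pigment granule protein, rose by 1.14 (limma adjusted p = 0.0457), and Best1, a chloride channel of that epithelium, fell by 0.98 (limma adjusted p = 0.0395). Both calls held in 1 of 6 fits that left out 1 library. Rpe65, its defining retinoid isomerase, had 2 reads in 1 mutant RGC library and 0 in the other 8 libraries.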
